A study of Homo sapiens with 54 samples.

Results

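Cytosolic ribosomal proteins are the protein components of the 80S ribosome, and the genes described here are the human members of that family by name: RPL or RPS followed by a number with an optional A, X or L, together with RPLP0, RPLP1, RPLP2 and RPSA, without pseudogenes and without the gene on chromosome Y. Of 27043 genes in the bulk tables of TPM, a length-normalised share of each library, 81 met this rule, 49 of the large (60S) and 32 of the small (40S) subunit. In the single-cell matrices 82 of 32738 genes met it. All samples were of RH4, an established fusion-positive rhabdomyosarcoma cell line that carries PAX3-FOXO1, so every comparison rests on 1 line. The study treated these cells with P3FI-90 or P3FI-63 (PFI-90 and PFI-63 in the sample labels), 2 compounds described as KDM3B inhibitors, or with dimethyl sulfoxide (DMSO), and measured bulk RNA, RNA of single cells, chromatin marks and RNA polymerase II.

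In culture at 24 h there were 3 P3FI-90 libraries, 2 P3FI-63 libraries and 3 DMSO libraries. The labels give 1 µM for P3FI-90 replicates 3 and 4 and 10 µM for P3FI-63 replicates 3 and 4. The remaining P3FI-90 library carries neither a replicate number nor a dose in micromolar, and is called replicate 1 here only as a name. Its title holds the tag "lo", as does that of the 6 h P3FI-90 library. Whether these libraries had the same dose as replicates 3 and 4 is therefore not known. Tumors were subcutaneous RH4 xenografts in mice collected after 5 days of P3FI-90 (Mice920 and Mice924) or DMSO (Mice913 and Mice923). Single libraries covered P3FI-90 and DMSO at 6 h, and 7 compounds of an earlier screen with a DMSO library, labelled 24 h. A scrambled control library at 48 h and a negative control CRISPRi library at 7 days were used for shares and levels only. Single-cell RNA at 16 h, ChIP-seq at 24 h (P3FI-90 and DMSO) and ATAC-seq at 4 h (P3FI-63 at 10 µM and DMSO) completed the data used. For ChIP-seq the labels give 1 µM of P3FI-90 for H3K4me3 replicates 3 and 4, H3K9me2 replicates 3 and 5, and HP1. The labels of the other P3FI-90 ChIP-seq libraries and of the single cells hold no dose. The study's methods give 1 µM for the single cells. The study's methods speak of biological replicates and the dated DMSO titles differ in date, but no label names separate cultures. The p-values therefore measure only the spread between these libraries, part of which may be technical.

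Each ribosome holds a single copy of nearly every one of these proteins, and cells make them in matched amounts. Their mRNAs are among the most abundant of a growing cell, and in vertebrates most begin with a C followed by an uninterrupted run of pyrimidines, the 5′ terminal oligopyrimidine (5′TOP) tract, through which mTOR signalling and LARP1 control their translation. A few members are paralogs with restricted expression: RPL3L is the form of RPL3 found in heart and skeletal muscle, RPL10L stands in for RPL10 in testis, and RPL39L is a testis-enriched form of RPL39.

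The start of the transcript is shown first because the pyrimidine run is the sequence feature that unites the family. Each line below gives 30 bases of the coding strand around the RefSeq start site on GRCh38.p14, from 10 bases before it, so that the eleventh letter is the first transcribed base. Capitals mark the longest pyrimidine run that begins with C, where it is at least 5 bases long. The 5 genes with the highest mean TPM come first, then the stalk proteins, RPSA, and RPS27L, a paralog of RPS27 and a p53 target, in which no such run was found.
RPL39, chrX:119791611-119791640, minus strand: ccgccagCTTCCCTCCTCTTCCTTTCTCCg
RPS27, chr1:153990752-153990781, plus strand: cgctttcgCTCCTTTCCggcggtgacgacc
RPL41, chr12:56116623-56116652, plus strand: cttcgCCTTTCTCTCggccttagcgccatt
RPL37A, chr2:216498834-216498863, plus strand: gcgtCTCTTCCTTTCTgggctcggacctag
RPS12, chr6:132814559-132814588, plus strand: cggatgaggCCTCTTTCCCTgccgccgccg
RPLP0, chr12:120201092-120201121, minus strand: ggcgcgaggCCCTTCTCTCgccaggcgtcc
RPLP1, chr15:69452808-69452837, plus strand: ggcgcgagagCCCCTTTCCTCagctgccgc
RPLP2, chr11:809957-809986, plus strand: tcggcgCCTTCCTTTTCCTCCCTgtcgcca
RPSA, chr3:39406710-39406739, plus strand: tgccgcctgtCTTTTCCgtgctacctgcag
RPS27L, chr15:63157458-63157487, minus strand: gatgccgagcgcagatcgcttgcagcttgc

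The RefSeq promoter table matched 64 of the 81 members, and 17 were not matched. A C followed by 4 more pyrimidines stood exactly at the annotated first base in 42 of the 64 (65.6%), against 729 of 15843 protein-coding promoters (4.60%). Counting any such run within the 30 bases raised this to 56 of 64 members (87.5%), against 38.3% of all promoters. In the 300 bases from 250 before to 50 after the start, searched on both strands, the ETS core CCGGAA was present in 54.7% of members and 22.9% of all promoters, and the YY1 core AAGATGG in 12.5% and 6.40%. The longer ETS form CCGGAAGT, which contains that core, was in 15.6% of members and 6.19% of promoters. The TATA box TATAAA (9.38% against 9.63%), the GC box GGGCGG (56.2% against 58.5%) and the E box CACGTG (4.69% against 8.88%) were not more frequent among members. These matches describe the letters of the window only.

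Ribosomal protein mRNA made up a large part of the TPM of nearly every library, and its share varied by several percentage points between libraries of the same group. At 24 h the members held 25.8%, 24.2% and 29.9% of TPM in P3FI-90 replicates 1, 3 and 4. The share was 21.8% and 32.2% in P3FI-63 replicates 3 and 4, against 23.3%, 22.6% and 28.6% in DMSO replicates 1, 3 and 4. Replicate 4 was the highest library of each group, and the groups overlapped. In tumors the share was 34.5% (Mice920) and 40.6% (Mice924) after P3FI-90, against 27.5% (Mice913) and 32.9% (Mice923) after DMSO, so both treated tumors lay above both DMSO tumors. TPM is a share of each library, so that more ribosomal protein mRNA per cell, less of the other RNA, and a different mix of cells cannot be told apart.

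**Figure D1:**
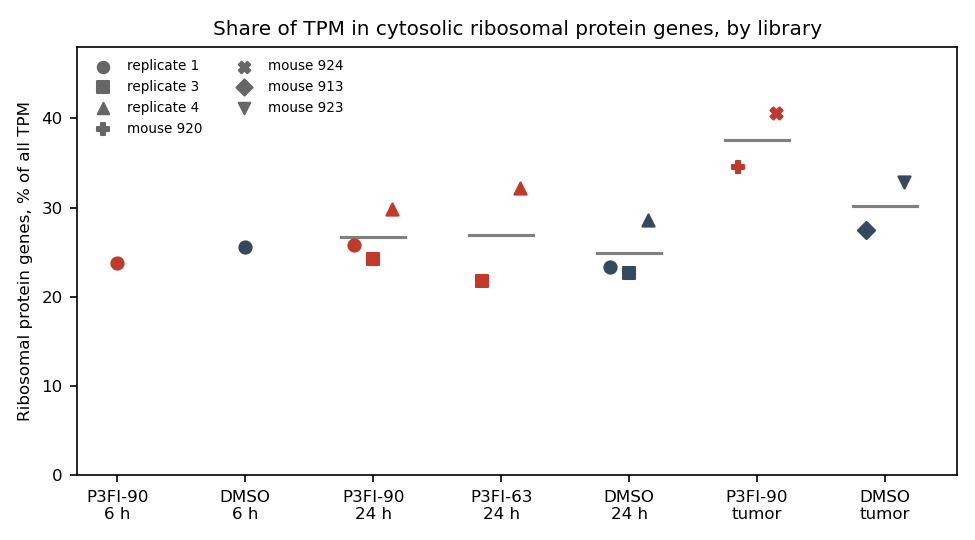
Percentage of all TPM held by the 81 ribosomal protein genes in each bulk library (y axis), with each compound's libraries left of their DMSO libraries and marker shapes for the replicate or mouse. The treated tumors sit at 34.5% and 40.6%, above the DMSO tumors at 27.5% and 32.9%, whereas the 24 h groups overlap.

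Among the single libraries the share ran between 24.8% (P3FI-63) and 29.5% (NP005584) for the 7 screen compounds, against 27.2% in the screen's DMSO library. A non-targeting CRISPRi control held 24.3%. The scrambled control library at 48 h stood apart: its member share was 13.5%, RPPH1, the RNA component of RNase P, alone took 11.8% of its TPM, and histone genes took 7.26%. That library entered no comparison, but it is part of the mean levels given below. Muscle lineage markers (MYOD1, MYOG, DES, CDH15, FGFR4 and MYF5) summed to 951 to 1506 TPM after P3FI-90 and 885 to 919 TPM after P3FI-63 at 24 h, against 1195 to 1554 TPM after DMSO, with MYF5 at 0 in all of these libraries. In tumors they summed to 1484 and 1653 TPM after P3FI-90, against 1421 and 1664 TPM after DMSO. Blood cell markers (PTPRC, CD14 and CD68) summed to 1.08 and 2.02 TPM in P3FI-90 tumors, against 1.13 and 3.20 TPM in DMSO tumors, with PTPRC at 0 in all 4, and endothelial markers summed to less than 1.2 TPM in each. Fibroblast markers (DCN, LUM and PDGFRA) summed to 13.9 and 15.6 TPM in P3FI-90 tumors, against 9.32 and 13.1 TPM in DMSO tumors. Blood, vessel and stromal cells of a xenograft come from the mouse, and the reads were aligned to the human genome. These human marker values are therefore no measure of the host cells in the tumors.

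Levels within the family covered a wide range. Over the 24 libraries that list all genes, the highest mean belonged to RPL39 (13390 TPM), which lines the exit tunnel of the large subunit. It was followed by RPS27, a zinc-finger protein of the small subunit (12946 TPM), RPL41, the smallest ribosomal protein (11372 TPM), RPL37A (10757 TPM) and RPS12 (7850 TPM). At the other end were RPL21 (415.0 TPM), RPL27A (353.0 TPM), RPL13 (217.4 TPM) and RPS27L (81.1 TPM). The mean of RPL21 includes 2528 TPM in the scrambled control library, and its place in this order depends on that library. The tissue-restricted paralogs were near absent, with mean levels of 1.6 TPM for RPL39L, 0.10 TPM for RPL3L and 0 TPM for RPL10L. The same held for single cells, in which RPL3L had 13 unique molecular identifiers (UMIs, 1 for each captured transcript) in all P3FI-90 cells and 27 in all DMSO cells, RPL39L had 138 and 113, and RPL10L had none.

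Bulk and single-cell data disagreed on the place of several members in this order. RPL17, at a mean of 1653 TPM in the DMSO libraries at 24 h, had a CPM (UMIs scaled to the library total) of 39.6 in DMSO cells, RPS10 had 1992 TPM and 215 CPM, and RPL36A had 2078 TPM and 296 CPM. Each of these lies under an annotated readthrough gene in the single-cell reference (RPL17-C18orf32, RPS10-NUDT3 and RPL36A-HNRNPH2). In the opposite direction, RPL13 (196 TPM), RPL21 (248 TPM) and RPL27A (317 TPM), low in bulk, had 3580, 3565 and 3260 CPM. UMIs are not scaled by length, so the 2 axes compare places in the order and not amounts, and values of these genes are uncertain in the assay in which they are low. The part of the readthrough annotation in this was not tested.

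**Figure D2:**
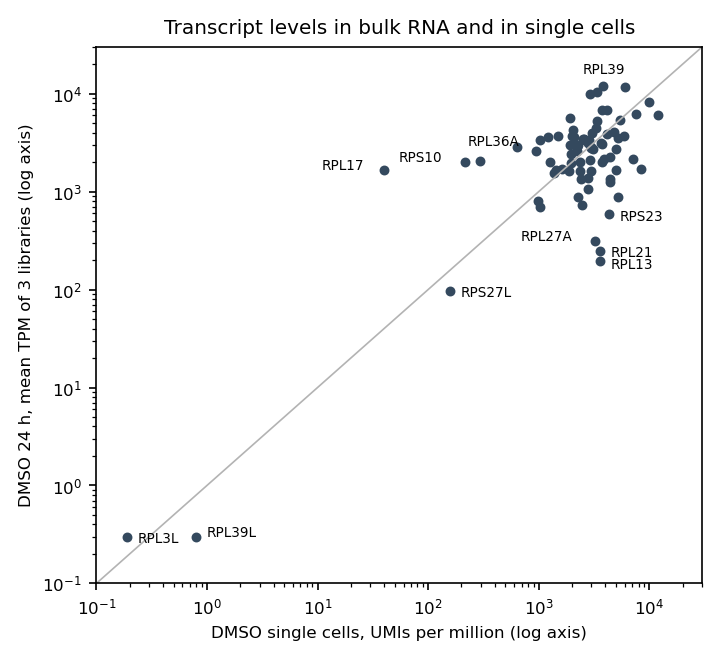
Mean TPM of 3 DMSO libraries at 24 h (y axis, log scale) against CPM in DMSO single cells (x axis, log scale), each point a ribosomal protein gene detected in both (1 member is not shown). RPL17 lies to the left at 1653 TPM and 39.6 CPM, and RPL13, RPL21 and RPL27A lie below the main group.

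Whether the compounds changed ribosomal protein mRNA after 24 h was asked with limma on log2(TPM + 1), over genes averaging 1 TPM or more, with all 8 libraries in 1 fit. The test covered 78 members, since RPL3L, RPL10L and RPL39L were too low. After P3FI-90, 0 of 78 members passed a Benjamini-Hochberg adjusted p of 0.05 in limma, where 0.00811% of all 12332 genes did, and 0 members had an unadjusted p under 0.05, against 1.98% of all genes. The median difference over the members was 0.10 on the log2(TPM + 1) scale, against -0.08 over all genes, and 64 of the 78 were above 0. The median was 0.13 for large subunit members (40 of 46 above 0) and 0.08 for small subunit members (24 of 32 above 0). Leaving out 1 library at a time moved the median of the members between 0.04 and 0.20 and gave no call.

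RPL4, RPL3, RPL13A and RPL11 had all 3 P3FI-90 libraries above all 3 DMSO libraries (4 of 78, where 4.21% of all genes did), and 0 members had the opposite pattern, where 7.73% of all genes did. Between libraries of the same labelled number, 56 of 78 members were higher after P3FI-90 in both replicates 3 and 4, where 29.6% of all genes were, and 4 were lower in both, where 45.3% of all genes were. The median difference of the members was 0.10 in replicate 3 and 0.06 in replicate 4, against -0.06 over all genes in each. RPL4, which lines the exit tunnel, was at 3035, 2965 and 3272 TPM in P3FI-90 replicates 1, 3 and 4, against 2505, 2554 and 2774 TPM in DMSO replicates 1, 3 and 4. All treated libraries were the higher ones, and the log2 difference was 0.24 (SE 0.16, limma adjusted p = 1). RPL3, a core protein of the peptidyl transferase centre, was at 2253, 2203 and 2468 TPM after P3FI-90, against 2040, 1871 and 2154 TPM after DMSO, a log2 difference of 0.19 (SE 0.13). RPL13A and RPL11, which belongs to the 5S particle that binds MDM2, had log2 differences of 0.21 (SE 0.13) and 0.17 (SE 0.15). RPL12, at the base of the stalk, and RPL10, which joins the large subunit last, had log2 differences of 0.22 (SE 0.22) and 0.18 (SE 0.16), with overlapping libraries. None of these differences passed the test.

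The lowest values after P3FI-90 were those of RPS26, RPS28 and RPL36. RPS26, a small subunit protein near the mRNA exit, was at 670, 621 and 784 TPM in P3FI-90 replicates 1, 3 and 4, against 712, 735 and 977 TPM in DMSO replicates 1, 3 and 4. The groups overlapped and the log2 difference was -0.22 (SE 0.23, limma adjusted p = 1). RPL36 had a log2 difference of -0.17 (SE 0.19). RPS28 had a log2 difference of -0.20 (SE 0.32), with P3FI-90 replicate 1 at 806 TPM far under the other libraries, which lay between 1437 and 1924 TPM in the P3FI-90 and DMSO groups. The stalk proteins RPLP1 and RPLP2, which recruit the GTPases of translation, also had their lowest value in P3FI-90 replicate 1. RPLP1 was at 3034, 6311 and 8444 TPM after P3FI-90, against 4611, 5650 and 8243 TPM after DMSO. RPLP0, which anchors them, was at 3846, 2978 and 4025 TPM after P3FI-90, against 3518, 2832 and 3863 TPM after DMSO. The log2 differences of RPLP0, RPLP1 and RPLP2 were 0.09 (SE 0.20), -0.14 (SE 0.37) and -0.03 (SE 0.32), all within the spread of the libraries. RPSA, a small subunit protein also known as the laminin receptor, was at 1886, 1581 and 2027 TPM after P3FI-90, against 1700, 1484 and 1981 TPM after DMSO, a log2 difference of 0.09 (SE 0.20).

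After P3FI-63 (10 µM), measured against the same DMSO libraries, 0 of 78 members passed the limma test, whereas 2.37% of all genes did, 143 higher and 149 lower. At an unadjusted p under 0.05 the count was again 0 of 78, against 19.7% of all genes. The members had a median of 0.08 (56 of 78 above 0) and all genes a median of -0.35. Between libraries of the same number, 25 of 78 members were higher in both replicates, where 14.7% of all genes were, and 7 were lower in both, where 51.4% of all genes were. Of the 5 muscle lineage markers tested, 1 passed limma: the myogenic factor MYOG fell by 2.06 on the log2 scale (limma adjusted p = 0.0177). MYOD1 was at -1.50 (limma adjusted p = 0.177), CDH15 at -0.99 and FGFR4 at -0.93, whereas DES was at 0.44 (limma adjusted p = 0.262). CD68, a lysosomal protein abundant in macrophages, was at 2.23 (limma adjusted p = 0.0822). The part of these markers in the members' values was not tested. These members' values rested on which P3FI-63 library was used: the median was -0.20 without replicate 4 (all genes 0.06) and 0.35 without replicate 3 (all genes -0.77). Without replicate 3 the limma test also called 5 of 78 members, where it called 39.3% of all genes. They were RPS27 (log2 difference 0.71), RPL37 (0.68), RPS9 (0.63), RPL11 (0.51) and RPL4 (-0.50), with the remaining P3FI-63 library assumed to vary like the other groups. Dividing each library by its median ratio to the others, rather than using TPM as deposited, brought the median of all genes to 0.01 and that of the members to 0.49, so that the members stood above the middle of all genes on both scales while both libraries were kept.

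RPL39 was at 11331 and 17562 TPM in P3FI-63 replicates 3 and 4, against 11661, 10766 and 13338 TPM in DMSO replicates 1, 3 and 4. Replicate 4 was above and replicate 3 within the DMSO range, and the log2 difference was 0.25 (SE 0.20, limma adjusted p = 0.495). RPL4 showed the reverse, at 2645 and 1849 TPM in P3FI-63 replicates 3 and 4, against 2505, 2554 and 2774 TPM in DMSO libraries, a log2 difference of -0.24 (SE 0.17, limma adjusted p = 0.451). RPS27L was one of 2 members with both P3FI-63 libraries above every DMSO library (2 of 78, where 7.82% of all genes were), the other being RPL13A. Its values were 104.0 and 134.4 TPM after P3FI-63, against 100.8, 90.3 and 97.8 TPM after DMSO, a log2 difference of 0.29 (SE 0.22, limma adjusted p = 0.464). No member had both P3FI-63 libraries below every DMSO library (0 of 78), where 24.3% of all genes did. RPS2, at the mRNA entry of the small subunit, had the lowest value, -0.28 (SE 0.30, limma adjusted p = 0.600), and RPS25 was at -0.19 (SE 0.17). Next to RPL21, the highest values were those of RPL37 (0.36, SE 0.23, limma adjusted p = 0.398) and RPLP1 (0.35, SE 0.41, limma adjusted p = 0.639).

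In tumors after 5 days, the question of the same change in vivo was put to 2 mice per group. No member passed limma with Benjamini-Hochberg adjustment (0 of 78, where 0.0162% of all 12357 genes did). At an unadjusted p under 0.05, 14 members were higher and 1 was lower in P3FI-90 tumors, where 0.583% of all genes were higher and 6.87% differed in either direction. The median over the members was 0.25 (69 of 78 above 0), and that over all genes was -0.30. Large subunit members had a median of 0.23 (39 of 46 above 0) and small subunit members one of 0.29 (30 of 32 above 0). In 37 of 78 members both P3FI-90 tumors were above both DMSO tumors, where 4.61% of all genes were, and in 3 of 78 (RPL28, RPL23A and RPL21) both were below, where 40% of all genes were. With median-ratio scaling the median of the members was 0.57 and that of all genes -0.01.

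RPL39 was at 24265 and 25978 TPM in the P3FI-90 tumors, against 14466 and 19009 TPM in the DMSO tumors, a log2 difference of 0.60 (SE 0.21, limma adjusted p = 0.573). RPS27 was at 23644 and 23335 TPM in the P3FI-90 tumors, against 12976 and 16741 TPM in the DMSO tumors, a log2 difference of 0.67 (SE 0.20, limma adjusted p = 0.573). RPL31, which sits at the exit of the tunnel, was at 6218 and 6717 TPM, against 3393 and 4632 TPM after DMSO, a log2 difference of 0.70 (SE 0.20). In each of these genes both treated tumors were the higher ones, and the DMSO tumors differed from each other by more than the treated tumors did. RPL17, its neighbour at the tunnel exit, had a log2 difference of 0.70 (SE 0.19), with the same limma adjusted p of 0.573. RPS27L, low throughout, was at 72.2 and 64.1 TPM in P3FI-90 tumors, against 49.0 and 48.4 TPM in DMSO tumors, a log2 difference of 0.48 (SE 0.23). RPSA (0.34, SE 0.20) and the stalk proteins RPLP0 (0.32, SE 0.20), RPLP1 (0.14, SE 0.20) and RPLP2 (0.18, SE 0.19) were nearer to the median. Below 0, next to RPL21, were RPL28 (-0.29, SE 0.18) and RPS26 (-0.27, SE 0.21).

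These tumor calls depended on single libraries. Without Mice920 (P3FI-90), limma called 11 of 78 members, all higher, where it called 15.2% of all genes in either direction and 0.625% as higher. Among them were RPS15, RPL17, RPL31, RPS27, RPS15A, RPL39, RPS24, RPL26, RPS16 and RPS21, with log2 differences between 0.59 and 0.84. Without Mice913, Mice923 or Mice924 it called 1 of 78, RPL21, as lower, where it called 0.164%, 0.526% and 0.368% of all genes. In each case a group of 1 tumor was assumed to vary like the other group. The median of the members stayed between 0.11 and 0.41 in these fits.

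RPL21, a large subunit protein that contacts 5S rRNA, was the least reproducible member in bulk RNA. It was at 90.6, 306 and 625 TPM in P3FI-90 replicates 1, 3 and 4 and at 79.3 and 881 TPM in P3FI-63 replicates 3 and 4, against 79.6, 56.2 and 610 TPM in DMSO replicates 1, 3 and 4. Values therefore differed more within groups than between the group means, which were 340 TPM after P3FI-90, 480 TPM after P3FI-63 and 248 TPM after DMSO. The log2 differences were 0.88 (SE 1.09) after P3FI-90 and 0.91 (SE 1.22) after P3FI-63. In tumors it was at 67.1 and 273 TPM after P3FI-90, against 350 and 436 TPM after DMSO, a log2 difference of -1.52 (SE 0.50, limma adjusted p = 0.573). In the scrambled control library that stood apart it reached 2528 TPM. In single cells, by contrast, it was present at 4236 CPM in P3FI-90 cells and 3565 in DMSO cells.

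At 6 h, where each group was 1 library and no test was possible, ribosomal protein mRNA was slightly lower after P3FI-90. The median over 79 members was -0.13, with 21 above 0, whereas the median of all genes was 0.15. Other genes had medians of -0.06, -0.03 and -0.02 at coding lengths under 300, 300 to 450 and 450 to 600 bases, and 0.18 above. The members had 0.04, -0.085, -0.12 and -0.19 in the same classes. The part of length in the difference from all genes was not tested. One member, RPL21 (170 TPM with P3FI-90 and 350 TPM with DMSO), was past 1.5-fold, where 15.7% of all genes were. The next lowest were the small subunit proteins RPS3A (-0.49), RPS12 (-0.48) and RPS13 (-0.46). The highest were RPL39L (0.38), RPL36 (0.33) and RPS28 (0.31). RPL39L was near the floor, at 1.39 TPM with P3FI-90 and 0.84 TPM with DMSO. RPS12 had 5746 TPM in the P3FI-90 library and 7995 TPM in the DMSO library at 6 h, whereas at 24 h it was at 8868, 7836 and 8721 TPM in P3FI-90 replicates 1, 3 and 4, against 8438, 7299 and 8690 TPM in DMSO replicates 1, 3 and 4.

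In the screen, with 1 library per compound against 1 DMSO library, the median of the members stayed between -0.13 and 0.12 for all 7 compounds. It was highest for NP005584 (0.12, 72 of 79 above 0; all genes -0.03) and 78902794023 (0.08, 70 above 0; all genes -0.05). It was lowest for P3FI-63 (-0.13, 4 above 0; all genes -0.04), IMMLG5770 (-0.09, 12 above 0; all genes 0.09) and 78800610218 (-0.06, 18 above 0; all genes 0.11). With IMMLG5770, other genes had medians of -0.009 under 300 coding bases and 0.105 at 600 or more, and members -0.104 and -0.065. With 78800610218, other genes had -0.044 and 0.121 in these classes, and members -0.087 and -0.015. The part of length in these differences from all genes was not tested. KUC100517N had a median of 0.04 and KUC102648N one of 0.00. After P3FI-63 the lowest members were RPL5 (-0.33), the partner of RPL11 in the 5S particle, RPL4 (-0.26) and RPL7A (-0.25). Of all members, the only ones past 1.5-fold were RPL21, higher with 78902794023 (log2 ratio 1.41), KUC100517N (0.93), NP005584 (0.72) and 78800610218 (0.61), and RPL39L, lower with NP005584 (-0.61). The share of all genes past 1.5-fold was 2.31%, 4.51%, 29.6% and 2.37% for these 4 compounds. It was 11.2% for P3FI-63, 3.59% for KUC102648N and 1.46% for IMMLG5770. RPL39L was low in both libraries, at 2.42 TPM with NP005584 and 4.23 TPM with DMSO.

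**Figure D3:**
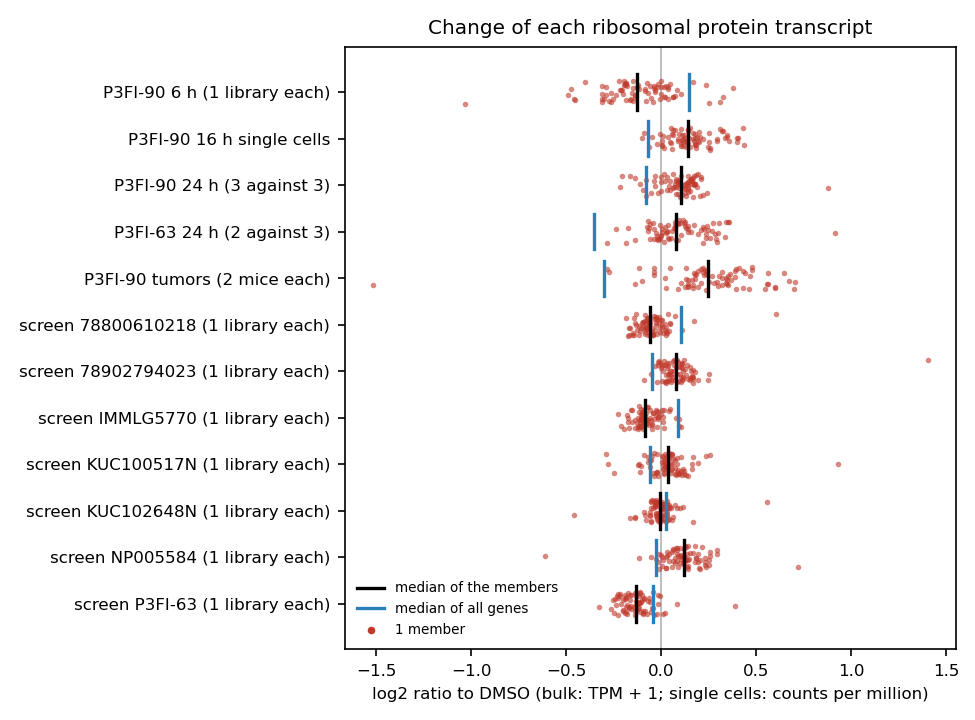
Log2 ratio to DMSO of each ribosomal protein gene (points; x axis, TPM + 1 in bulk and CPM in single cells) for each comparison (rows), with the medians of the members in black and of all genes in blue. The medians of the members stay between -0.13 and 0.25, and RPL21 and RPL39L give the outlying points in bulk RNA.

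Other genes of the protein synthesis machinery did not all follow the ribosomal proteins. Of 20 further 5′TOP genes (elongation and initiation factors and others) 19 were tested in each bulk comparison, and 0 passed limma. Their median was 0.15 after 24 h of P3FI-90 (18 of 19 above 0), -0.01 after P3FI-63 (8 above 0) and 0.05 in tumors (12 above 0), against -0.08, -0.35 and -0.30 for all genes. EIF4B, which assists the helicase eIF4A, had the highest value after P3FI-90 (0.54, SE 0.36, limma adjusted p = 1). Of 35 genes of ribosome biogenesis, none passed, with medians of -0.13 (12 above 0), -0.46 (6 above 0) and -0.50 (1 above 0) in the same order. Among them POLR1A, the catalytic subunit of RNA polymerase I, was at -0.88 (SE 0.30, limma adjusted p = 0.573) in tumors and -1.27 (SE 0.53, limma adjusted p = 0.227) after P3FI-63. The 6 ribosomal protein genes outside the naming rule, such as FAU, which encodes a fusion with a ubiquitin-like protein, had medians of -0.02, 0.03 and 0.01.

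Single cells gave a view with far more counts but 1 library per condition, so that no test between conditions was possible. There were 11415 barcodes after P3FI-90 and 13516 after DMSO, 34 barcode sequences occurred in both, and 10456 P3FI-90 and 12542 DMSO cells were kept. The median was 13255 UMIs per cell after P3FI-90 and 8827 after DMSO. The median member share per cell, after thinning each cell to 2000 UMIs, was 27% in 9129 P3FI-90 cells and 23.6% in 11367 DMSO cells, a difference of 3.45 percentage points. Without thinning the medians were 27.2% and 23.7%. The 1327 P3FI-90 and 1175 DMSO cells under 2000 UMIs, left out of the thinned medians, had shares of 29.8% and 24.9%, with mitochondrial shares of 1.45% and 5.92%. The part of these shallow cells, of depth and of free RNA in the difference between the libraries was not tested. By depth, the P3FI-90 and DMSO shares were 26.9% and 22.9% at 2000 to 4000 UMIs, 26.6% and 22.6% at 4000 to 8000, 26.7% and 23.9% at 8000 to 16000, and 27.4% and 25% above that.

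Gene by gene, 77 of the 82 members had a mean of at least 10 CPM over both libraries, and 71 of these were above 0 (log2 ratio of P3FI-90 over DMSO cells). Their median was 0.14, and that of all 7905 genes -0.07. None was past 1.5-fold, where 1.35% of all genes were (0.481% higher), and 10 had a log2 ratio above 0.32 (2.3% of all genes did, and 10% were past that size in either direction). RPS21 had the largest ratio, with 2830 CPM in P3FI-90 cells and 2090 in DMSO cells (log2 ratio 0.44). RPL39 had 5137 in P3FI-90 cells and 3817 in DMSO cells (0.43), and RPL36A, RPS27 and RPL34 each had a log2 ratio of 0.40. Next were RPS28 (0.36), RPS29 (0.35), RPL37A (0.34), RPL23 (0.34) and RPL41 (0.33). The 6 members below 0 included RPL17 (-0.10), RPLP0 (-0.09), RPS27L (-0.06), RPL18 (-0.05) and RPS2 (-0.02). Within the stalk, RPLP0 had 2442 CPM in P3FI-90 cells and 2600 in DMSO cells, whereas RPLP1 had 8300 and 7526 and RPLP2 had 3721 and 2981. Counting intervals of the ratio were narrow (1.35 to 1.36 for RPS21) and cover counting error only, not the difference between 2 cultures.

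Members with short coding sequences had the higher ratios in single cells. Across the 77 members Spearman's correlation of the log2 ratio with coding length was -0.66, as a description across genes that share the same libraries, against -0.16 across 7140 other genes. The 10 members with a coding length under 300 bases had a median log2 ratio of 0.34, the 26 of 300 to 450 bases had 0.18, the 19 of 450 to 600 bases had 0.09, and the 22 longer ones had 0.10. Other genes had medians of 0.05, -0.04, -0.05 and -0.08 in the same classes. In bulk RNA the members gave values of -0.41 after P3FI-63, 0.14 after P3FI-90 at 24 h and -0.04 in tumors, whereas other genes gave -0.20, 0.00 and -0.48. In tumors, where long genes other than the members were the lower ones (-0.33 at 600 bases or more, -0.04 under 300), the members had medians of 0.23 and 0.28 in these classes. At 6 h Spearman's correlation was -0.24 for the members and 0.45 for other genes. Coding length was chosen as the measure after the values had been seen.

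**Figure D4:**
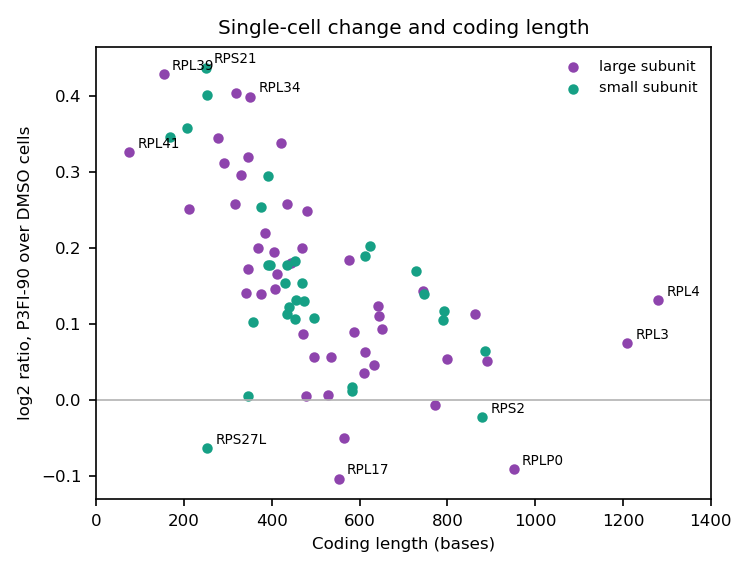
Log2 ratio of CPM, P3FI-90 over DMSO cells (y axis), against coding length in bases (x axis) for large and small subunit genes. Members under 300 bases have a median of 0.34 and those of 600 bases or more a median of 0.10.

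Peaks at the starts of these genes were described from ChIP-seq. Start sites were taken from GENCODE on GRCh37, the build of the peak files (hg19), and a peak counted within 2 kb of the start. H3K4me3, the mark of active promoters, was found at 74 of 81 members in each of the 3 P3FI-90 libraries, against 73, 74 and 74 in the DMSO libraries, where 60.9%, 51.2% and 58.9% of all protein-coding starts had one after P3FI-90 and 60.5%, 50.5% and 58.3% after DMSO. RNA polymerase II phosphorylated at serine 5, the form found near promoters, had peaks at 73 members in DMSO cells, where 38.6% of all starts had one. Their median fold enrichment was 21.6, against 9.68 over all starts with such a peak, and 44 of the 73 were at or above the ninetieth percentile. For total polymerase this held for 8 of 50 members and for the serine 2 form for 4 of 48, with median percentiles of 64.8 and 55.1.

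After 24 h of P3FI-90, in 1 library per condition and antibody, the number of peaks was lower for all 3 polymerase antibodies. Total polymerase had 521 peaks genome-wide after P3FI-90 and 6031 after DMSO, and 3 members had one after P3FI-90, against 50 after DMSO (3.70% and 61.7% of the 81; 0.513% and 6.22% of all starts). The 3 that kept theirs were 6.00% of the 50, where 7.93% of the 1249 starts bound in DMSO cells did: RPL41 at position 56510374 of chromosome 12 (8.39-fold after P3FI-90, 22.7-fold after DMSO), RPL35A at position 197677061 of chromosome 3 (5.90-fold and 14.5-fold) and RPL32 at position 12883081 of chromosome 3 (5.22-fold and 10.1-fold). The serine 5 form more often kept its peaks. It was kept at 70 of 73 members (95.9%; 24.6% of all starts had one after P3FI-90), where 62.9% of 7756 starts kept it, with a median enrichment at members of 15.4-fold after P3FI-90 and 21.6-fold after DMSO. Among these 70 members RPL41 had an enrichment of 62.8-fold after P3FI-90 and 95.1-fold after DMSO. The median log2 ratio of the enrichment, P3FI-90 over DMSO, was -0.53 at these members and -0.41 over all starts that kept a peak. The enrichment was thus lower at members and elsewhere. Both medians leave out the starts that lost their peak, which were a larger part of all starts than of members. The serine 2 form, found over the body of transcribed genes, was kept at 8 of 48 members (16.7%), where 23.9% of starts kept it. Of all starts 2.66% had such a peak after P3FI-90 and 7.18% after DMSO. In DMSO cells the median enrichment was higher at members than over all starts both for the serine 5 form and for total polymerase (7.45 against 6.65), and its part in the shares kept was not tested.

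**Figure D5:**
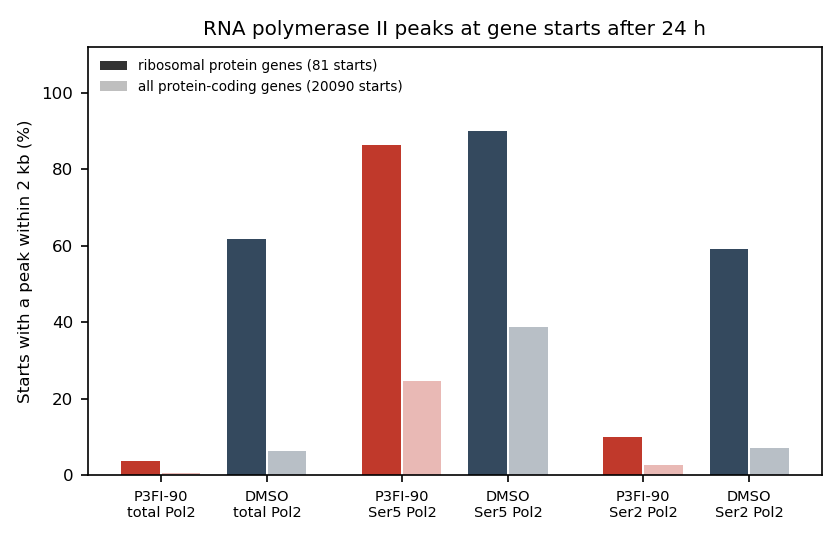
Percentage of starts with a peak within 2 kb (y axis) for total, serine 5 and serine 2 phosphorylated polymerase, P3FI-90 left of DMSO, for the 81 ribosomal protein genes (dark) and all 20090 protein-coding genes (light). Serine 5 peaks remain at 86.4% of members after P3FI-90 against 90.1% after DMSO, while total polymerase is at 3.70% against 61.7%.

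HP1, a heterochromatin protein, had a peak at 17 of 81 members after P3FI-90 and at 4 after DMSO (21% and 4.94%), where 7.79% and 3.22% of all starts had one and the lists held 41771 and 23615 peaks genome-wide. Open chromatin by ATAC-seq after 4 h of P3FI-63 was found at 65 of 81 members after treatment and 45 after DMSO (80.2% and 55.6%), with 53.6% and 37.3% of all starts and 55987 and 30221 peaks. Neither had a replicate, and the part of the number of peaks called in the counts at members was not tested. The broad mark H3K9me2 had a peak in replicates 3 and 5 at 0 and 0 members after P3FI-90 (1.66% and 0.483% of all starts), against 10 and 0 after DMSO (6.01% and 0.488%). In replicate 1, deposited with a looser threshold, it was at 59 members after P3FI-90 and 63 after DMSO (78.9% and 79.4% of all starts). H3K27me3, in 1 library per condition and with the same looser threshold, was at 68 members after P3FI-90 and 65 after DMSO (80.1% and 76.8% of all starts). Its median enrichment at members was low, 2.40-fold after P3FI-90 and 2.33-fold after DMSO, against 2.65-fold and 2.57-fold over all starts with a peak.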

How the data were processed

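The authors aligned bulk RNA reads to hg19 with STAR and deposited RSEM gene values in TPM, which keep no read depth. Single-cell reads were deposited by the authors as UMI counts per gene and cell (Cell Ranger 6.1.2). ChIP-seq and ATAC-seq peaks came from MACS2, with a fold enrichment (ratio over background) and a −log10 p deposited for each peak. The labels give 24 h for the screen libraries, whereas the study's own sample table gives a shorter time.

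Bulk comparisons used limma 3.58.1 in R 4.3.3 with a mean-variance trend on log2(TPM + 1), genes averaging 1 TPM or more, and Benjamini-Hochberg adjustment over all genes tested at 0.05. On simulated data the 24 h P3FI-90 fit of 12332 genes recovered 10% of genes changed by 1 and 72% of genes changed by 2 on the log2 scale, the P3FI-63 fit 7% and 58%, and the tumor fit of 12357 genes 34% and 92%. The changed genes were drawn from all genes tested, whatever their level, and the simulated libraries varied independently. These percentages are therefore no measure of recovery for the members alone. Cells with at least 200 genes and at most 15% mitochondrial UMIs were kept. Doublets were not called here, and the 3% of cells with the most UMIs were left out as an alternative. Named genes were the most abundant members, the 3 largest in each direction of each comparison, the stalk proteins, RPSA and the paralogs, with others singled out after their values were seen. Members and gene lists were chosen with earlier results of these data known. Alternatives were another pseudocount, minimum TPM, scaling, block and depth, and leaving out each library. Some members and list genes are counted but not reported singly here. Hi-C was not analysed here.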

Additional observations from a re-analysis of the deposited data

Results flagged for a closer look

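The member share of TPM differed between P3FI-90 and DMSO in opposite directions at 6 h and 24 h. At 6 h the share was 23.8% after P3FI-90 and 25.6% after DMSO, a difference of -1.76 percentage points in 1 library per group. At 24 h it was 1.59 and 1.28 points higher in P3FI-90 replicates 3 and 4 than in the DMSO libraries with the same number, and 2.49 points higher in the unnumbered P3FI-90 library than in DMSO replicate 1. The difference between the times and the part of coding length in it were not tested. The dose of the 6 h library is not stated in micromolar in the labels.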

How the results depend on the processing

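Of the alternatives for the main values, 117 left them the same, 13 moved them and 1 reversed a median. A count was the same within 1.5 times. A bulk median was the same if it shifted by less than 1 standard deviation of the member medians of DMSO libraries. These were the 24 h libraries, also for the 6 h and screen values, or the DMSO tumors. The single-cell share was the same between 3.20 and 3.55 points, a range from 95% intervals over cells that leaves out variation between libraries. For 33 named members, 19 of 1254 alternatives passed the adjusted p of 0.05 where the reported value did not, and 108 had the other sign, none of those being called. With the replicate number as a block, 0 members were called after P3FI-90 (median 0.10) and after P3FI-63 (median 0.05), while calls among all genes after P3FI-63 numbered 1358 with the block and 292 without it. The deviations of same-numbered libraries correlated at 0.571, 0.575 and 0.643 for P3FI-90 and DMSO, with the unnumbered library taken as number 1, and at 0.312 and 0.388 for P3FI-63 and DMSO. The titles share the numbers 3 and 4 across groups, and do not say that a number marks a shared day or culture. Median-ratio scaling gave medians of 0.49 after P3FI-63 (0.46 with the block, a combination chosen after seeing the data), 0.57 in tumors and -0.28 at 6 h. Leaving out 1 library gave a median between -0.20 (reversed, without P3FI-63 replicate 4) and 0.35 after P3FI-63 and between 0 and 5 calls there, and between 1 and 11 calls in tumors. Thinning to 4000 UMIs gave a share difference of 3.15 points, a lower fold threshold (0.32 on the log2 scale) gave 10 members in single cells, and a window of 500 bp left 2 members with a kept serine 2 peak. The cause of these shifts was not tested. Groups of 1 to 3 libraries, TPM without depth and 1 library per condition in single cells and polymerase ChIP-seq limit what could be tested.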
